A study of Mus musculus with 8 samples.

Results

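The genes described here are 8 Toll-like receptor genes (Tlr1, Tlr2, Tlr4, Tlr6, Tlr7, Tlr8, Tlr9 and Tlr13), the LPS co-receptor gene Cd14 and the adaptor gene Myd88, which are 10 of the 32285 genes in the count matrices. They were picked by name, as the receptors, co-receptor and adaptor of 1 pathway, and the rule for picking them uses no measured value. They were followed in single cells that had been sorted as CD45+CD11b+Ly6Chi from MC38 tumors, which grow from a mouse colon carcinoma line, or from blood of mice with such tumors. The tumors were not treated (control) or were given 20 Gy of ionizing radiation (IR), and the cells were taken 3 days afterwards. Each of the 4 libraries (tumor control, tumor IR, blood control and blood IR) mixed cells of 2 genotypes that could be told apart by a hashtag, an antibody carrying a readable oligonucleotide. Cells with the hashtag B0301 came from WT mice, which carry floxed Ythdf2 alleles and no Cre. Cells with the hashtag B0302 came from Ythdf2 conditional knockout (cKO) mice, which carry the same floxed alleles with Cre at the Lyz2 locus, so both genotypes were floxed and the Cre reached only cells that use the Lyz2 promoter. Several mice were pooled for every group, which makes each of the 8 groups a single sample. No difference given here has a replicate check and none was tested.

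Toll-like receptors recognize molecules of microbes and of damaged cells. Tlr1, Tlr2, Tlr4 and Tlr6 act at the cell surface, where Tlr2 pairs with Tlr1 or Tlr6 to bind bacterial lipopeptides and Tlr4 binds lipopolysaccharide handed over by Cd14, whereas Tlr7, Tlr8, Tlr9 and Tlr13 sit in endosomes and bind nucleic acids. Myd88 carries the signal of all of these receptors to the IRAK kinases and NF-κB, and in monocytes, macrophages and neutrophils the outcome is the production of cytokines and chemokines.

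The 8 groups held between 2147 and 4625 kept cells and between 18883248 and 24706177 unique molecular identifiers (UMIs, each standing for 1 captured mRNA). The 2 tumor matrices shared 12558 barcodes with at least 500 UMIs in both. Of all 13144 barcodes of tumor control with at least 500 UMIs, 7327 (55.7%) held under 20 hashtag UMIs there. Of these, 7325 held hashtags in the tumor IR matrix. In tumor IR 4958 of 12927 (38.4%) were under 20, and 4955 of these held hashtags in tumor control. The blood matrices shared 24 barcodes of at least 500 UMIs, and 11 barcodes in each held under 20 hashtag UMIs. The hashtag minimum of 20 UMIs removed the barcodes under it from each matrix. It did not act on gene UMIs, so a kept tumor barcode could also hold gene UMIs in the other tumor matrix. The part of such sharing in the tumor comparisons of IR with control was not tested. The genotype labels could not be checked by the targeted gene, since a 3′ tag need not lie in the deleted part. Ythdf2 was at 33.2 to 55.6 counts per 1e+06 gene UMIs (CPM) in cells labelled WT and at 303 to 371 CPM in cells labelled cKO. It was thus higher, not lower, in cells labelled cKO, and the cause was not tested. Lyz2, whose locus holds the Cre, was at 5597 to 14095 CPM in cells labelled WT and at 83.1 to 139 CPM in cells labelled cKO. The groups are therefore called cells labelled WT and cells labelled cKO. The gate was also checked: Ly6c2, the gene of the sorted antigen, was at 775, 665, 1128 and 1119 CPM in blood (control WT, control cKO, IR WT, IR cKO), at 448 and 157 CPM in the control tumor (WT, cKO) and at 1459 and 1157 CPM in the IR tumor (WT, cKO). Markers named neutrophil-like, macrophage-like, NK cell-like, T cell-like, B cell-like and fibroblast-like clusters besides the monocyte-like cells, so results are given within these classes.

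Promoter windows were looked up for 9 of the members, all but Cd14, from 250 bases before to 50 bases after the start site, from the RefSeq table of GRCm38.p6. They were found for 7 of the 9, and not for Tlr4 and Tlr7. Tlr8 is on the reverse strand of chromosome X, Tlr6 on the reverse strand of chromosome 5, Tlr13 on the forward strand of chromosome X, and Myd88 and Tlr2 on the reverse strands of chromosomes 9 and 3. The windows printed are chrX:167264280-167264579, chr5:64959117-64959416 (the first of 2 windows of Tlr6), chrX:106143025-106143324, chr9:119339969-119340268 and chr3:83841559-83841858, in the order of the lines. They are shown because Tlr8, Tlr6, Tlr13 and Myd88 were among the members that were higher after IR in tumor macrophage-like cells. Tlr2 was at nearly the same level over that class as a whole, but within its clusters it differed in both directions, as given below. Capitals mark a match, on either strand, to an IRF-type repeat (GAAANNGAA) or to the core bound by PU.1 (GAGGAAG). No capital stands in the Tlr2 window.
Tlr8: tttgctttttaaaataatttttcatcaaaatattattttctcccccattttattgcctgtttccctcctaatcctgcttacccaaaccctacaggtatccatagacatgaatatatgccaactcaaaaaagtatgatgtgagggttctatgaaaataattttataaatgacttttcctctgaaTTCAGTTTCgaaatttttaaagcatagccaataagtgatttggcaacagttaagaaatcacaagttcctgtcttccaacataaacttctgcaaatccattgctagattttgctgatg
Tlr6: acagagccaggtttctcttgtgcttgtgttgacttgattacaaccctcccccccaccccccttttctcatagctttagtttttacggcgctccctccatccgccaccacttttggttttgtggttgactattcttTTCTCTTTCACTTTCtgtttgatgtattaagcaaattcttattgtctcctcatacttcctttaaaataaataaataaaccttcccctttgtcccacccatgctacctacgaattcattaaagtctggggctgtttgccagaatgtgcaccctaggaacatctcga
Tlr13: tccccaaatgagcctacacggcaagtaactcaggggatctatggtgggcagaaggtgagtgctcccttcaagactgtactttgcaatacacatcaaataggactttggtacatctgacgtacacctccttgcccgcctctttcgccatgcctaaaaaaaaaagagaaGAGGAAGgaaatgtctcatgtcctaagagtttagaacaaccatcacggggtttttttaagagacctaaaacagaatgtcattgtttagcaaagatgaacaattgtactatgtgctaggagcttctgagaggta
Myd88: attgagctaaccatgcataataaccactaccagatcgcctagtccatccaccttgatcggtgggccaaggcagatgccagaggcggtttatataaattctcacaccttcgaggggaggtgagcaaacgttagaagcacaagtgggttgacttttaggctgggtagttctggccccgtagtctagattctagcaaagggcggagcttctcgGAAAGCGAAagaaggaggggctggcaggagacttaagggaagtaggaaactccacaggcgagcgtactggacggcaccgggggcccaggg
Tlr2: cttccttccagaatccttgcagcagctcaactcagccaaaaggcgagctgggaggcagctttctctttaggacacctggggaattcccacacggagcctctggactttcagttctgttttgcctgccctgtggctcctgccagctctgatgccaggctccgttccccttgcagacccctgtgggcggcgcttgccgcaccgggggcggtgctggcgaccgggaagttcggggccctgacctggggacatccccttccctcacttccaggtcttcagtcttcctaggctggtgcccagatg
The IRF-type repeat is the sequence that interferon regulatory factors read. It stood 67 to 59 bases before the start site in Tlr8 and 40 to 32 bases before it in Myd88. In Tlr6, a pair of overlapping matches stood 115 to 107 and 109 to 101 bases before the start site. PU.1 is a factor of the myeloid lineage, and its core stood 83 to 77 bases before the start site of Tlr13. It was also found 23 to 17 bases before that of Tlr1, which was nearly level after IR, and at 2 places in the window of Tlr9. The other window of Tlr6 held none of the motifs. Such matches were common: 8.55% of all 32807 RefSeq promoter windows of this length held the IRF-type repeat and 13.6% held the PU.1 core. The third motif searched, the AP-1 core TGANTCA, was in 7.82% of all windows and, among the members, in that of Tlr9. A match describes letters in the window and says nothing about binding.

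The myeloid classes differed in which of these genes they held. Levels are sums of UMIs over a class, as CPM, with exact 95% Poisson intervals that, like all intervals here, cover counting error only. A 3′ UMI count is not scaled by length, so a gene is compared between classes and not with another gene. The differences between classes are a description, since the same cells were clustered on their expression.

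Among the named classes, Tlr2 was highest in the tumor, at 514 CPM (503 to 525) in the 2615 monocyte-like cells and 462 CPM (456 to 468) in the 5654 macrophage-like cells. In blood it was at 109 CPM in the 10916 neutrophil-like cells, 80.5 CPM in the 3020 monocyte-like cells and 44.3 CPM in the 988 nonclassical monocyte-like cells. Cd14 followed the same order of tissues, at 3385 and 3207 CPM in tumor monocyte-like and macrophage-like cells against 386, 143 and 88.4 CPM in blood neutrophil-like, monocyte-like and nonclassical monocyte-like cells. The lipopolysaccharide receptor and its co-receptor were both tumor-high, and of the 3 large blood classes both were highest in neutrophil-like cells. Tlr4 was at 51.4 CPM in tumor macrophage-like and 43.5 CPM in tumor monocyte-like cells, at 32.7 CPM in neutrophil-like cells, and at 10.4 and 9.73 CPM in nonclassical and classical blood monocyte-like cells, a pair whose intervals overlapped. Tlr1 and Tlr6, which share Tlr2 as their partner, had opposite leading classes among the 3 large classes of blood. Tlr1 was at 19.4 CPM in nonclassical monocyte-like cells, 8.48 CPM in monocyte-like cells and 1.45 CPM in neutrophil-like cells. Tlr6 was at 35.6 CPM in neutrophil-like cells against 13.9 and 11.9 CPM in nonclassical and classical monocyte-like cells.

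Among the endosomal receptors, Tlr7 and Tlr8 were highest in blood monocytes of the myeloid classes. Tlr7, a sensor of single-stranded RNA, was at 129 CPM (122 to 136) in nonclassical monocyte-like cells, 69.7 CPM (66.9 to 72.5) in monocyte-like cells and 8.75 CPM (7.75 to 9.86) in neutrophil-like cells of blood, and at 29.7 and 25.4 CPM in tumor monocyte-like and macrophage-like cells. Tlr8, its neighbor on chromosome X, was at 19.0 and 18.01 CPM in the nonclassical and classical blood monocyte-like cells, 13.3 CPM in tumor monocyte-like cells, 8.91 CPM in macrophage-like cells and 7.89 CPM in neutrophil-like cells. Tlr13, the receptor for bacterial ribosomal RNA, was spread over all 3 large blood classes. It was at 112 CPM in neutrophil-like, 102 CPM in nonclassical and 80.1 CPM in classical monocyte-like cells, and at 48.2 and 39.4 CPM in tumor macrophage-like and monocyte-like cells. Tlr9, the receptor for CpG DNA, was sparse, with at most 2.31 CPM in any class, in blood dendritic cell-like cells, and it did not reach 100 UMIs in any comparison. Myd88 was at 182 CPM in neutrophil-like cells, 121 CPM in tumor monocyte-like cells, 101 and 94.9 CPM in classical and nonclassical blood monocyte-like cells and 54.7 CPM in tumor macrophage-like cells.

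**Figure D1:**
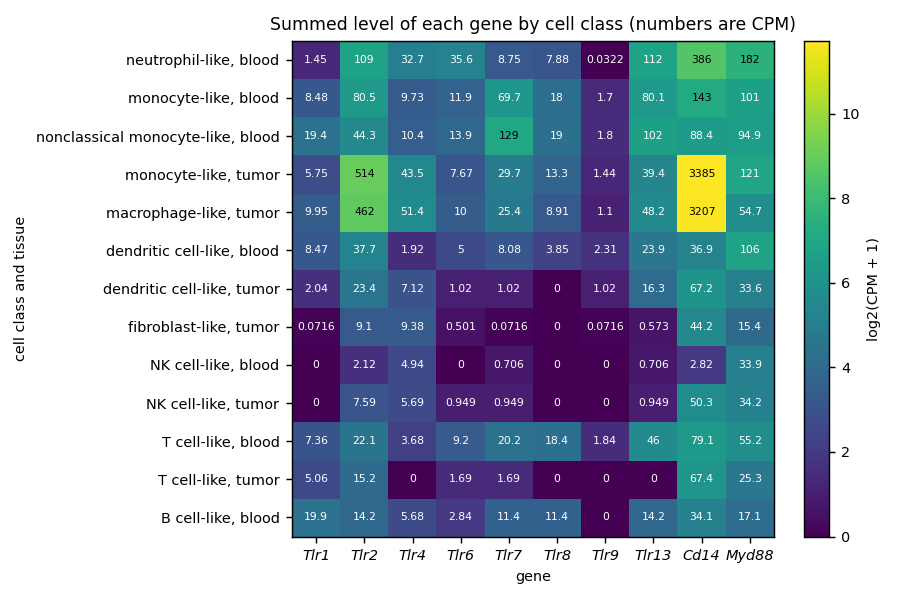
Summed level of each of the 10 genes (columns) in 13 combinations of cell class and tissue (rows), with the number in each cell in CPM and the color on a log2(CPM + 1) scale. Cd14 and Tlr2 stand out in tumor monocyte-like and macrophage-like cells, Tlr7 in nonclassical monocyte-like cells (129 CPM) and Tlr6 in neutrophil-like cells (35.6 CPM).

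NK cells, which should lack most of these genes, gave the background. In tumor NK cell-like cells (340 cells, median 2484 UMIs) 2.35% of cells held a Tlr2 UMI, against 82.5% of macrophage-like cells (median 7639.5 UMIs). With every cell thinned to 1500 UMIs these shares were 0.943% and 45.3%. Tlr7 was found in 0.248% of the 404 blood NK cell-like cells (median 3315.5 UMIs) and in 65.3% of nonclassical monocyte-like cells (median 9455 UMIs), or 0.161% and 17.97% after thinning. No UMI of Tlr1, Tlr6, Tlr8 or Tlr9 was found in blood NK cell-like cells, where 0 of 404 cells allows a share of cells with a UMI of up to 0.743%, taken as 3 counts of the total. Tlr4 was at 4.94 CPM and Myd88 at 33.9 CPM in these cells, against 9.73 and 101 CPM in blood monocyte-like cells. Barcodes without cells in blood held Tlr4 at 16.3 CPM in control and 25.1 CPM after IR, above the level of blood monocyte-like cells. Cd14 was less clean in the tumor: 14.1% of tumor NK cell-like cells held a Cd14 UMI against 0.99% in blood, and barcodes without cells held Cd14 at 2582 and 2651 CPM in the tumor control and tumor IR libraries. Blood T cell-like cells (73 cells) held Tlr13 at 46.0 CPM, Cd14 at 79.1 CPM, Myd88 at 55.2 CPM and Tlr7 at 20.2 CPM. Their cluster had 2 raised neutrophil markers, and barcodes without cells in blood held Tlr13 at 84.7 CPM in control and 80.8 CPM after IR. The part of such RNA was not tested.

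Taking the 8 receptors as one pool, the share of their UMIs that came from the 4 endosomal receptors separated the classes. It was 74.1% (72.5 to 75.5) in nonclassical monocyte-like cells, 60.5% (59.5 to 61.5) in blood monocyte-like cells and 41.9% (40.9 to 42.9) in neutrophil-like cells. In the tumor it was 13.6% in macrophage-like and 12.8% in monocyte-like cells, a pair whose intervals overlapped. The blood value of monocyte-like cells was 53.0% when the cells were clustered more finely, where a blood cluster of 1807 cells stayed unnamed, by a tie of markers, and so left the class.

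Monocyte-like cells were the largest class in neither tissue, but the largest one that both tissues held in number, and were compared between them. In blood they came from cluster 2 and from the small cycling cluster 18 (140 cells), in tumor from cluster 3. The comparison was made within each of the 4 pairs of treatment and label. Tumor cells held far more Tlr2, Tlr4 and Cd14. Cd14 was at 258, 136, 122 and 76.4 CPM in blood (control WT, control cKO, IR WT, IR cKO) and at 3915, 4726, 2993 and 2850 CPM in tumor. The log2 ratio of tumor to blood was 3.92 to 5.22. Tlr2 was at 101, 77.8, 77.6 and 68.7 CPM in blood and at 538, 690, 458 and 482 CPM in tumor, a log2 ratio of 2.41 to 3.14. Tlr4 was at 7.37, 10.5, 9.53 and 11.3 CPM in blood and at 34.3, 37.1, 44.1 and 52.2 CPM in tumor, a log2 ratio of 1.81 to 2.19. For these 3 genes every tumor group lay above every blood group. The tumor and blood cells were sorted and loaded as separate libraries, so tissue and library cannot be told apart. Control and IR cells of a tissue were separate libraries too, so treatment and library cannot be told apart in any comparison of IR with control. Barcodes without cells differed in the same direction for Cd14 (2582 and 2651 CPM in the tumor libraries, 413 and 214 CPM in the blood libraries, control first) and Tlr2 (328 and 424 CPM, 149 and 151 CPM). NK cell-like cells of the same libraries held Cd14 at 50.3 CPM in tumor and 2.82 CPM in blood, and Tlr2 at 7.59 and 2.12 CPM. The part of free RNA, as held by barcodes without cells, in the tissue differences was not tested.

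Endosomal receptors went the other way. Tlr7 was at 79.4, 81.6, 56.7 and 67.2 CPM in blood and at 25.01, 31.8, 28.2 and 33.9 CPM in tumor, with log2 ratios of -1.66, -1.36, -1.01 and -0.98. Tlr13 was at 74.4, 91.9, 71.9 and 85.0 CPM in blood and at 35.8, 38.6, 35.6 and 46.2 CPM in tumor, with log2 ratios of -1.05, -1.25, -1.01 and -0.88. Blood and tumor groups did not overlap for either gene. Tlr8 was at 21.3, 18.7, 16.2 and 16.8 CPM in blood and 11.5, 7.82, 15.3 and 14.8 CPM in tumor. Its log2 ratios were -0.87, -1.24, -0.08 and -0.19, so that it was lower in tumor in control and nearly level after IR. Myd88 had log2 ratios of 0.13 to 0.36.

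A gene was counted as past the limit where it differed at least 2-fold with at least 100 UMIs over both groups. In control WT 5 of 8 measured members were past it, against 27.9% of all genes measured, and in control cKO 6 of 7 members against 30.6%. After IR the counts were 5 of 9 in WT, against 31.3%, and 3 of 9 in cKO, against 31.7%. Cd14, Tlr2 and Tlr4 were past the limit in all 4 pairs. The median of all genes lay at -0.34 to -0.44 in these comparisons, and the members are to be read against that shift: with factors of the trimmed mean of M values (TMM) the ratios of Tlr7 were -1.30, -0.93, -0.59 and -0.55 and those of Tlr13 were -0.69, -0.83, -0.59 and -0.44 (control WT, control cKO, IR WT, IR cKO). Myd88 was at 0.64, 0.64, 0.79 and 0.56 with these factors. Tlr8 was at -0.52 and -0.82 in the control pairs and turned to 0.34 and 0.25 in the IR pairs. With finer clustering, where a blood cluster of 1807 cells stayed unnamed between monocyte and nonclassical monocyte and left the class, Tlr7 was at -0.97, -0.65, -0.47 and -0.64.

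**Figure D2:**
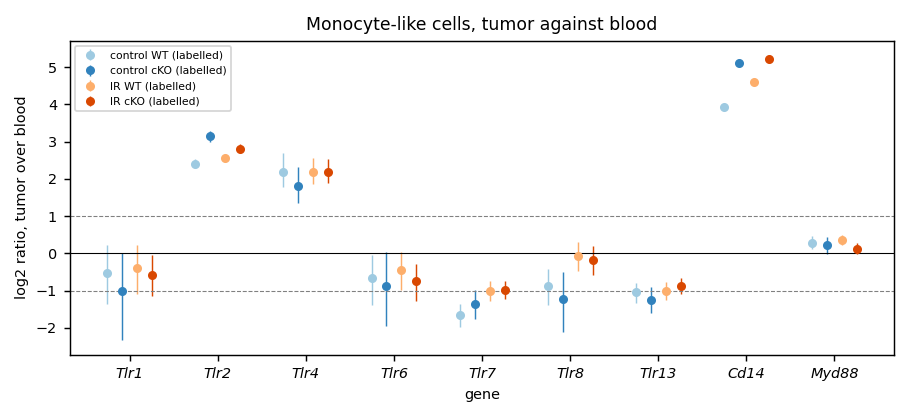
Log2 ratio of tumor over blood (vertical axis) for 9 members in monocyte-like cells, 1 point per pair of treatment and label, with exact 95% intervals for counting error and dashed lines at the 2-fold limit. Cd14, Tlr2 and Tlr4 lie above the upper line in all 4 pairs, and Tlr7 (-1.66 to -0.98) and Tlr13 (-1.25 to -0.88) lie near or below the lower line.

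The other genes of the pathway, from lists of co-receptors, adaptors, kinases, inhibitors and induced targets, were read in the same cells. Of the induced targets, the cytokine and chemokine genes that follow receptor signaling, all 11 measured in both WT pairs and in control cKO and all 10 in IR cKO were past the limit and higher in tumor, with medians of 5.62 to 7.60. Tnf was at 173 CPM in tumor and 8.75 CPM in blood in control WT, and Il1b was at 8460 and 172 CPM. Irak2 (log2 ratio 2.07 to 2.35), a kinase of the Myd88 complex, Nfkbia (2.19 to 2.72), an inhibitor that NF-κB itself induces, and Cd36 (3.36 to 4.40), a scavenger receptor that works with Tlr2, were higher in tumor in all 4 pairs. Irak4 (-1.56 to -1.03), the first kinase to join Myd88, and Cd180 (-1.76 to -1.43), a surface relative of Tlr4, were lower in all 4 pairs. Unc93b1, the chaperone that carries Tlr7, Tlr8, Tlr9 and Tlr13 to endosomes, had log2 ratios of -0.83 to -0.69 and was not past the limit.

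The question of IR in the tumor was first read within macrophage-like cells, 1138 and 1192 cells of control and 1370 and 1954 of IR (WT, cKO). Of the receptors with enough UMIs, all but Tlr1 and Tlr2 were higher after IR under both labels. Tlr8 was at 5.96 and 5.21 CPM in control (WT, cKO) and at 12.8 and 11.4 CPM after IR, with log2 ratios of 1.09 (0.65 to 1.57) and 1.11 (0.71 to 1.55). Tlr4 was at 36.8 and 37.7 CPM in control and at 59.4 and 67.3 CPM after IR, ratios of 0.69 and 0.84. In both genes the IR groups lay above the control groups.

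Tlr7 was at 16.7 and 20.6 CPM in control and 31.9 and 30.7 CPM after IR, with log2 ratios of 0.93 (0.66 to 1.21) and 0.57 (0.35 to 0.80). Tlr13 was at 32.7 and 37.3 CPM in control and 57.9 and 61.3 CPM after IR, with ratios of 0.82 and 0.71. Tlr6 was at 7.55 and 6.38 CPM in control and 13.9 and 12.2 CPM after IR, with ratios of 0.87 and 0.92. The adaptor followed them, and for these genes too the control and IR groups did not overlap. Myd88 was at 45.3 and 38.1 CPM in control and 62.4 and 69.8 CPM after IR, with ratios of 0.46 and 0.87. Tlr2 (0.09 and 0.04), Tlr1 (-0.10 under both labels) and Cd14 (-0.03 and -0.23) were nearly level. The share of receptor UMIs that were endosomal was 10.5% and 10.8% in control and 16.3% and 15.4% after IR. Barcodes without cells held more Tlr4 (23.5 and 44.1 CPM), Tlr13 (27.2 and 40.2 CPM) and Myd88 (40.9 and 71.9 CPM) in the tumor IR library than in tumor control. Tlr6 (12.1 and 12.4 CPM) and Tlr7 (21.2 and 25.5 CPM) differed less there, and Tlr8 was not higher (3.03 and 2.32 CPM). The part of such free RNA in the differences after IR was not tested.

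Tlr8 was the 1 of 9 measured members past the 2-fold limit under each label, where 5.79% of all genes measured in WT and 11.9% in cKO were past it. The median over the measured members was 0.69 in WT and 0.71 in cKO, and over all genes measured it was -0.07 and -0.06. Tlr8 in WT was under the limit, at 0.96, with coarser clustering. The macrophage-like class was made of different clusters in the groups: cluster 5, led by Mmp13, Nos2 and Rsad2, held 261 and 108 cells in control and 806 and 1040 after IR, and cluster 4, with class II genes, held 680 and 607 in control and 490 and 755 after IR. Within cluster 4 the ratios of Tlr4 (0.61 and 0.74), Tlr7 (1.07 and 0.86) and Tlr13 (0.57 and 0.61) were of like size, and Tlr2 was at -0.20 and -0.17. Within cluster 5 Tlr4 (0.38 and 0.73), Tlr7 (0.44 and 0.44) and Tlr13 (0.91 and 0.58) were higher after IR, as were Tlr2 (0.78 and 0.96) and Myd88 (1.10 and 1.19). In cluster 9, the smaller macrophage-like cluster led by Ccl8 and Folr2, Tlr7 was at -0.35 and Tlr13 at 0.14 in cells labelled cKO, and in cells labelled WT both had under 100 UMIs. For Tlr8 and Tlr6 no ratio within a cluster is given. Over all groups Tlr8 was at 7.37 CPM in cluster 4 and 11.2 CPM in cluster 5, and Tlr6 at 7.62 and 15.0 CPM. The part of the mix of clusters in their ratios was not tested.

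Genes of the interferon response moved with these receptors in the same cells: 10 of 11 measured in WT (median 2.64) and 11 of 11 in cKO (median 3.70) were past the limit and higher after IR, for example Ifit3 at 27.6 and 225 CPM in WT. Whether they had a part in the receptor levels was not tested. Irf7, the factor that carries Tlr7 signals to interferon genes and is itself interferon-induced, was at 110 and 688 CPM in WT (2.64) and at 48.2 and 572 CPM in cKO (3.57). It was the only 1 of the 15 kinases, ligases and factors past the limit in either label. Tlr5 (1.05 and 1.32) and Cd36 (1.04 and 1.26) were past it under both labels and Tlr3 in WT (1.54, against 0.75 in cKO). Of the induced targets measured, 1 was higher (Cxcl10, 1.09) and 1 lower (Il10, -2.19) in WT. In cKO 2 were higher, among them Nos2 (2.22), and 4 lower, among them Il10 (-2.61), Ifnb1 (-2.35) and Tnf (-1.68). None of the 3 adaptors measured besides Myd88, from a list of Tirap, Ticam1, Ticam2 and Sarm1, and none of the 6 inhibitors measured was past the limit.

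**Figure D3:**
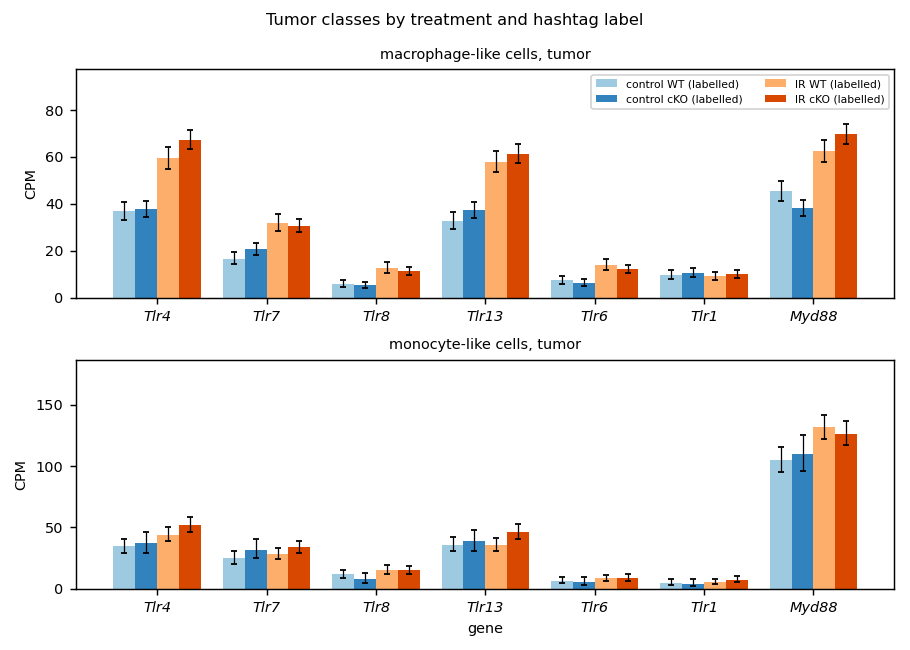
Level in CPM (vertical axis) of 7 members in macrophage-like (top) and monocyte-like (bottom) cells of the tumor, 1 bar per group with exact 95% Poisson intervals. In macrophage-like cells both IR bars stand above both control bars for every gene but Tlr1. In monocyte-like cells Tlr4, Tlr8 and Myd88 show the same order, with smaller gaps for Tlr4 and Myd88.

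Tumor monocyte-like cells (647 and 321 cells of control, 831 and 816 of IR) differed less. None of 7 measured members in WT, against 1.82% of all genes, and none of 6 in cKO, against 3.82%, was past the limit. Cd14 was at 3915 and 4726 CPM in control and 2993 and 2850 CPM after IR, with log2 ratios of -0.39 (-0.42 to -0.36) and -0.73 (-0.77 to -0.69). Tlr2 was at 538 and 690 CPM in control and 458 and 482 CPM after IR, with ratios of -0.23 and -0.52. Both were thus lower after IR under both labels, while Tlr4 had ratios of 0.36 and 0.49 and Myd88 0.33 and 0.20. For Tlr8, with 222 UMIs over all tumor monocyte-like cells, both IR groups also lay above both control groups. Of the induced targets, 8 of 11 were past the limit and lower after IR in cKO, among them Il6 (-2.59) and Tnf (-2.29), and 1 was higher, while in WT 1 of 11 was lower and none higher.

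Over all kept cells of the tumor, 1 of 9 members was past the limit in WT (Tlr6, 1.23), against 5.77% of all genes, and 5 of 9 in cKO, against 22.2%. The 5 were Tlr8 (1.49), Tlr6 (1.33), Tlr4 (1.13), Tlr13 (1.08) and Myd88 (1.05), all higher after IR. These sums mixed the classes, and fewer cells of a type and less RNA per cell cannot be told apart in them. Fibroblast-like cells, which held almost none of the endosomal receptors, made up 16.8% and 30.6% of the UMIs in control and 9.8% and 5.2% after IR (WT, cKO). Without them 1 of 9 members was past the limit in cKO (Tlr8, 1.04), and Cd14, Tlr2 and Tlr1 in cKO turned from 0.14, 0.36 and 0.40 to -0.30, -0.08 and -0.05. Unnamed clusters of low UMI counts made up 10.3% and 8.57% of cells in control and 19.4% and 16.0% after IR, and without them Tlr6 in WT was at 0.94, so that no member was past the limit. One of these, cluster 10, had 323 and 244 cells after IR and 14 and 27 in control, 4 raised neutrophil markers and a median of 1912.5 UMIs. In the tumor it held Tlr6 at 78.8 CPM, Tlr4 at 152 CPM, Tlr13 at 122 CPM and Cd14 at 7086 CPM.

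The comparison of labels asked whether the receptor genes differed with Ythdf2 genotype. Over all kept cells no member of the 9 was past the limit in tumor control (4.64% of all genes were), tumor IR (1.29%), blood control (2.21%) or blood IR (0.664%). Within tumor macrophage-like cells the count was also 0 of 9, in control against 2.45% and in IR against 0.352%. The log2 ratios of cKO over WT there ran from -0.25 (Myd88) to 0.30 (Tlr7) in control and from -0.19 (Tlr6) to 0.18 (Tlr4) after IR. In control the widest intervals were those of Tlr8 (-0.72 to 0.33) and Tlr6 (-0.71 to 0.23), so that differences under about that size could not be seen at this depth.

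Tumor monocyte-like cells gave 0 of 6 members in control, against 1.02% of all genes, and 0 of 7 after IR, against 0.186%. Tlr2 (0.36, interval 0.26 to 0.46) and Cd14 (0.27, interval 0.23 to 0.31) were the members whose control intervals lay above 0. Induced targets of the pathway in the same control cells were further apart: 8 of 11 were past the limit and higher in cells labelled cKO. Il1a was at 173 and 781 CPM, Tnf at 173 and 773 CPM and Il6 at 31.1 and 111 CPM (WT, cKO), and the inhibitors Nfkbiz (1.56) and Tnfaip3 (1.18) were also past it. In control macrophage-like cells 4 of 13 induced targets were higher, among them Ifnb1 (2.03), Tnf (1.35) and Il6 (1.18), and 1 was lower (Ccl5, -1.52). The interferon response genes of these cells were lower in cKO, 5 of 10 past the limit with a median of -0.99, among them Rsad2 (-1.39), Irf7 (-1.19) and Ifit3 (-1.12). After IR the induced targets past the limit between labels were 0 of 12 in macrophage-like cells and 1 of 11 in monocyte-like cells (Nos2).

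In blood Cd14 was lower after IR in all 3 classes and is described first. In neutrophil-like cells it was at 562 and 493 CPM in control and 281 and 183 CPM after IR (WT, cKO), with log2 ratios of IR over control of -1.001 (-1.07 to -0.93) and -1.43 (-1.52 to -1.34). In monocyte-like cells it was at 258 and 136 CPM in control and 122 and 76.4 CPM after IR, with ratios of -1.08 and -0.83. The cycling cluster 18, with Cd14 at 72.0 CPM, gave 1 and 1 of these cells in control and 46 and 86 after IR, and within cluster 2 alone the ratios were -1.03 and -0.73. In nonclassical monocyte-like cells it was at 141 and 77.2 CPM in control and 80.2 and 36.1 CPM after IR, with ratios of -0.81 and -1.09. There 0 of 5 members in WT, against 0.677% of all genes, and 1 of 6 in cKO (Cd14), against 0.658%, were past the limit. Each label was lower after IR in all 3 classes, and within the larger neutrophil-like clusters 0 (-1.03 and -1.71) and 1 (-0.91 and -0.96) as well. Barcodes without cells showed the same order, with Cd14 at 413 CPM in blood control and 214 CPM in blood IR. The part of such free RNA in the result was not tested.

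Cd14 also differed between labels in blood. In monocyte-like cells the log2 ratio of cKO over WT was -0.92 (-1.03 to -0.81) in control and -0.67 (-0.81 to -0.54) after IR. In nonclassical monocyte-like cells it was -0.86 and -1.14, and Cd14 was the 1 of 5 measured members past the limit between labels after IR, against 0.682% of all genes, with 0 of 7 past it in control, against 0.711%. With hashtags called by HTODemux the -1.14 was -0.87, under the limit. In neutrophil-like cells the ratios were -0.19 and -0.61. All 6 values were below 0, whereas in tumor macrophage-like cells the ratios were 0.08 in control and -0.12 after IR. The 4 comparisons of a class share their groups, so these values are not independent.

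**Figure D4:**
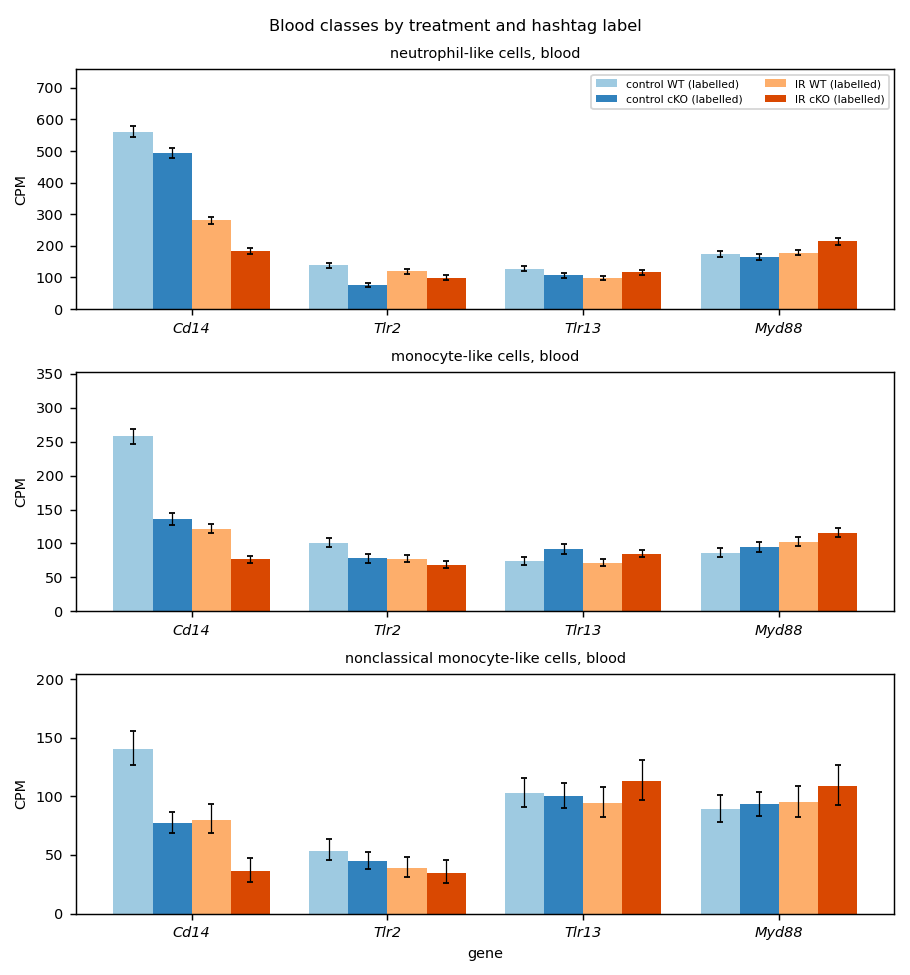
Level in CPM (vertical axis) of Cd14, Tlr2, Tlr13 and Myd88 in neutrophil-like (top), monocyte-like (middle) and nonclassical monocyte-like (bottom) cells of blood, 1 bar per group with exact 95% Poisson intervals. The control WT bar of Cd14 is the tallest and the IR cKO bar the shortest in each class (562 and 183, 258 and 76.4, and 141 and 36.1 CPM), while Tlr13 and Myd88 vary less.

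Of the other members, only Tlr7 was past the limit within a blood class. In neutrophil-like cells labelled cKO it differed more after IR than Cd14 did. Between labels in control neutrophil-like cells, Tlr7 and Tlr2 also differed more than Cd14. In neutrophil-like cells 1 of 8 measured members was past the limit after IR in WT (Cd14, which was at -0.98 with cells called by the UMI threshold alone), against 0.75% of all genes, and 2 of 8 in cKO (Cd14 and Tlr7), against 2.36%. Tlr7 was at 8.34 and 16.3 CPM in control and 5.48 and 4.996 CPM after IR, so that the control group labelled cKO was the high one (log2 ratio after IR -1.68 in cKO and -0.59 in WT). That group also held 470 of the 587 cells of cluster 11, led by the granule genes Ngp, Ltf and Camp, where Tlr7 was at 15.9 CPM. Within clusters 0 and 1, where Tlr7 had under 100 UMIs in each comparison, its ratio of cKO over WT in control was 1.49 and 0.88. Between labels 0 of 8 members was past the limit in control, against 3.65%, and 0 of 7 after IR, against 0.507%. The nearest to it were Tlr7 (0.96, interval 0.53 to 1.41) and Tlr2 (-0.89, interval -1.04 to -0.74), at 138 CPM in WT and 74.8 CPM in cKO. Tlr2 was also lower in cKO within clusters 0 (-0.89) and 1 (-0.74), and after IR the difference was -0.26.

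In blood monocyte-like cells 1 of 9 members was past the limit after IR in WT (Cd14), against 0.725% of all genes, and 0 of 9 in cKO, against 0.947%. Between labels the count was 0 of 9 in control, against 0.681%, and 0 of 9 after IR, against 0.318%. Tlr7 had log2 ratios of IR over control of -0.48 (-0.65 to -0.32) and -0.28 (-0.45 to -0.12), which is the opposite direction to tumor macrophage-like cells. In cluster 2 alone, without the cycling cells (Tlr7 at 24.4 CPM there), these ratios were -0.41 and -0.18. Tlr2 was at 101 and 77.8 CPM in control and 77.6 and 68.7 CPM after IR, with ratios of -0.38 and -0.18. Tlr13 was slightly higher in cells labelled cKO, with ratios of 0.31 and 0.24 in control and after IR. Over all kept blood cells no member in WT, against 1.29%, and 1 of 9 in cKO (Cd14, -1.23), against 1.39%, was past the limit after IR.

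Pathway genes in blood are given beside the shares of all genes past the limit after IR. These were 0.75% (WT) and 2.36% (cKO) in neutrophil-like cells, and 0.725% and 0.947% in monocyte-like cells. In neutrophil-like cells after IR, Cxcl10 was past the limit and higher (2.43 in WT and 1.57 in cKO) and Ccl5 lower (-2.22 and -1.51) of 7 induced targets, and 3 (WT) and 6 (cKO) of 10 interferon response genes were higher. In monocyte-like cells the interferon response genes had none past the limit after IR. There, 3 of 5 induced targets (Cxcl2, Cxcl10 and Tnf) and the inhibitors Tnfaip3 (-1.30) and Nfkbia (-1.15) were lower in cKO. No kinase, ligase or factor of the 14 or 15 measured was past the limit in either class after IR.

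Tumor and blood were last compared over all kept cells, where the mix of classes differs most. In control 7 of 9 members were past the limit in WT, against 35.5% of all genes, and 7 of 9 in cKO, against 43.8%. After IR the counts were 3 of 9, against 32.5%, and 4 of 9, against 32.1%. Cd14 (2.91 to 4.56) and Tlr2 (1.76 to 2.49) were higher in tumor in all 4 pairs. Tlr7, Tlr8, Tlr13, Tlr6 and Myd88 were past the limit and lower in the control pairs, and of these Tlr6 (-1.01) was past it after IR in cKO. The share of receptor UMIs that were endosomal was 10.6% and 10.4% in tumor control, 15.5% and 15.2% in tumor IR, 52.2% and 60.8% in blood control and 50.4% and 55.4% in blood IR.

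The genes whose pattern was most like each member were taken by Pearson's r of log2(CPM + 5) over 45 sums of a class in a group, among 8607 genes with at least 1000 UMIs, as a description only, since the sums share libraries and depth. Cd14 was most like Fth1 (0.95), the ferritin heavy chain, and Tlr2 most like Slc15a3 (0.94), an endolysosomal peptide transporter. Tlr13 was most like Dok3 (0.94), Tlr7 most like Serpinb2 (0.93) and Tlr6 most like Hdc (0.91), which makes histamine. Tlr8 was most like its neighbor Tlr7 (0.91). Tlr4 was most like Acod1 (0.89), the enzyme that makes itaconate, with the chemokine Cxcl2 next (0.86). Myd88 was most like Wfdc17 (0.86), and Tlr1 most like Cd180 (0.85). Tlr9 was most like Ms4a4c (0.80), on only 175 UMIs.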

How the data were processed

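Gene and hashtag UMIs were measured by 10x Genomics 3′ v3.1 single-cell RNA sequencing in 4 libraries. The authors aligned the reads to mm10 with the GENCODE vM23 annotation and deposited raw UMI counts for every barcode, without normalization. The methods name Cell Ranger 6.0.1 and the file headers Cell Ranger 4. The 4 matrices held 51653956 to 87703837 gene UMIs, and 2 hashtags each.

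Cells were called here again, since empty barcodes were included: above a threshold of 1/10 of the UMIs held by the 99th-percentile barcode among the 8000 largest, and below it, from 500 UMIs, by an ambient test (barcodes ranked 45000 to 90000, 10000 simulations, adjusted level 0.01). Barcodes with under 200 genes or over 25% mitochondrial UMIs were left out. At least 20 hashtag UMIs were required. A cell was WT where B0301 was not below B0302, and cKO where B0302 was at least 4 times B0301. The 6% with the highest Scrublet scores were removed per library (scanpy 1.11.5), because the threshold set by Scrublet itself marked at most 4 barcodes per library and had not worked. This left 27423 cells. They were clustered with Seurat 5.3.0 (R 4.3.3, 2000 variable genes, 40 components, resolution 0.8), and 17 of 20 clusters were named from marker lists. A name needed at least 3 markers found in 25% of cells and at 2-fold the median level over clusters. A cluster stayed unnamed on a tie or where another class had more markers among its leading genes. It also did at low UMI counts without a leading marker.

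UMIs were summed per class and group. CPM carry exact Poisson intervals, log2 ratios (1 UMI added, scaled to depth) exact conditional binomial intervals, and shares Clopper-Pearson intervals, all at 95%. With 1 sample per group no test was made. The computations were tested on simulated data. Alternatives were TMM factors (edgeR 4.0.16), 5 added UMIs, other minimum counts, hashtag, doublet, mitochondrial and cell-calling rules, and other resolutions. All 10 members are named. Of each pathway list the counts past 2-fold are given, with names from the 4 largest ratios past it. Tnf, Il1b and Unc93b1 between tumor and blood, Tlr3 in cKO and the clusters described were chosen after their values were seen. The members and lists were chosen with earlier results of these data known.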

Additional observations from a re-analysis of the deposited data

How the results depend on the processing

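Each group was 1 pooled sample, so intervals cover counting error and nothing here measures the spread between mice. The counts of members past the 2-fold limit over all kept cells were recomputed 132 times under the alternatives, and 129 stayed within 1.5 times the value given. The exceptions were IR against control in the tumor. In WT the count of 1 became 3 with TMM factors and 0 without the cells of unnamed low-UMI clusters, and in cKO the count of 5 became 1 without fibroblast-like cells. Both of the latter settings were chosen after seeing the data. The endosomal share at resolution 1.2 was 14.0% in tumor macrophage-like, 11.5% in tumor monocyte-like and 53.0% in blood monocyte-like cells, against 13.6%, 12.8% and 60.5%. The cause was not tested. Of 1573 ratios within classes 89 and of 1320 over all kept cells 97 moved beyond their intervals, and no value past the limit changed sign. Of 80 levels in a class 23 moved, and of 50 shares of cells 49, all of the shares on leaving out the thinning to 1500 UMIs. At resolution 0.4 the blood monocyte cluster stayed unnamed and gave no value. Tlr9, with 175 UMIs in all, could not be compared at this depth. Labels were compared within each library, and a comparison over the 4 libraries as pairs was not made.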
